A study of Mus musculus with 4 samples.

Results

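The genes described here are the enzymes of heme biosynthesis, *Alas1*, *Alas2*, *Alad*, *Uros*, *Urod*, *Cpox*, *Ppox* and *Fech*, taken by gene symbol. Of the 8 listed enzymes, 7 were among the 12067 genes of the count table, and *Alas2* was not analysed here.

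Expression was measured by Quant-seq, which sequences each mRNA near its 3′ end, in donor-derived KL cells (lineage-negative, cKit+, Sca-1- myeloid progenitors) sorted as CD45.2+ cells from the marrow of transplanted mice. A total of 4 libraries was compared, 2 labelled scl-Cre-ERT +; Bcorfl/y (*Bcor*ΔE9-10, called mutant) and 2 labelled Bcorfl/y (*Bcor*WT, called control), each sorted 20 weeks after whole bone marrow was given to PTPRCA mice, which carry CD45.1. Donors of both genotypes had received tamoxifen, the recipients were females, and the donors were taken to be males, the sex the methods give for mice used in molecular work. In *Bcor*ΔE9-10 donors the Cre recombinase is driven by a stem cell element of *Scl* and removes floxed exons of *Bcor*, which leaves a truncated Bcor protein at low level. *Bcor*WT donors carried the floxed allele without the Cre transgene. Irradiation was sub-lethal, so the recipients kept CD45.1 cells of their own, which the gate removes. Neither the labels nor the methods say whether each library came from a separate recipient, so the p-values below measure the spread between these libraries, which may be technical. In bulk RNA from sorted cells, fewer cells of a type and less RNA per cell cannot be told apart.

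Heme is the iron-containing ring carried by haemoglobin, cytochromes, catalase and myeloperoxidase. Its synthesis starts in mitochondria, where Alas1 (in most cells) or Alas2 (in erythroid cells) joins glycine and succinyl-CoA, continues in the cytosol through steps that include Alad, Uros and Urod, and ends in mitochondria with Cpox, Ppox and Fech, which inserts iron. Erythroid precursors make most of the heme in bone marrow, whereas granulocyte progenitors need it for myeloperoxidase.

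Totals lay between 3825289.5 and 6253100.5 counts per library. The sorted cells carried *Kit*, which encodes the gated receptor, at 29.4 to 61.9 CPM (counts on a common library size, after edgeR's TMM scaling), against 0 to 3.80 CPM of *Ly6a*, which encodes Sca-1, and *Mpo*, the myeloperoxidase gene of granulocyte progenitors, lay between 4284 and 6889 CPM. Control replicate 2 stood apart from the other libraries. There the transcript *Gm42418* took 1.43% of the counts, against 14.3 to 27.9% in the other 3, and the Pearson correlation of log2 CPM across genes was 0.893 between the control libraries and 0.947 between the mutant libraries. *Bcor* itself had 104 and 113 counts in mutant cells and 58 and 79 in controls, a log2 fold change (log2FC) of 0.25, with a standard error (SE) of 0.36. Reads from the 3′ end do not cover the deleted exons, so these counts do not check the genotype.

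No heme enzyme passed edgeR's quasi-likelihood F test between the genotypes after Benjamini-Hochberg adjustment over all genes, nor did any with limma-voom or DESeq2. Adjusted p-values of the 7 enzymes ran from 0.945 to 0.987, in a table where 2 of 12067 genes (0.0166%) passed an adjusted p of 0.05. None of the 7 had an unadjusted p under 0.05 either, by any of the 3 tools, against 4.42% of all genes by edgeR. Estimates were above 0, that is higher in mutant cells, for *Alas1*, *Alad*, *Uros*, *Urod* and *Cpox* and below 0 for *Ppox* and *Fech*, with a median log2FC of 0.33 against -0.03 over all genes. Without mutant replicate 2 that median was 0.062. The signs for *Urod*, *Ppox* and *Fech* turned when a single library was left out. The groups did not overlap for 1 of the 7, *Alad*, which was higher in both mutant libraries. Over all genes 16.8% were higher without overlap in mutant cells and 17.1% were lower, so 1 of 7 is near the background.

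**Figure D1:**
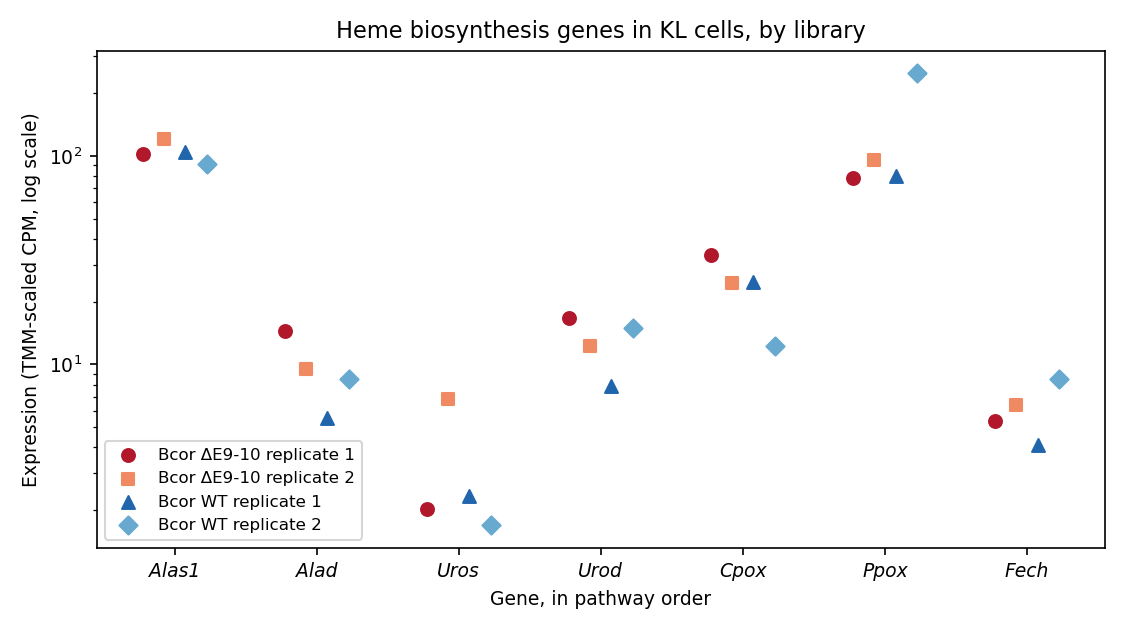
Expression of each of the 7 heme enzymes in the 4 libraries, as TMM-scaled CPM on a log axis, with genes in pathway order and a symbol for each library. *Alas1* and *Ppox* sit highest, and *Ppox* in control replicate 2 reaches 249 CPM, above the 78.5 to 95.5 CPM of the other 3 libraries.

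*Alas1* (ENSMUSG00000032786, chr9:106233455-106248654 on the minus strand of GRCm38), whose product catalyses the rate-limiting step outside the erythroid lineage, was the most abundant enzyme mRNA in 3 of the 4 libraries. It had 553 and 738 counts in mutant replicates 1 and 2 and 358 and 488 in control replicates 1 and 2, or 102, 120, 105 and 91.8 CPM in that order. The control values lay on both sides of the lower mutant value, so the groups overlapped. The log2FC was 0.18 with an SE of 0.31 and a 95% interval from -0.54 to 0.90. It ranged from 0.062 without mutant replicate 2 to 0.29 without mutant replicate 1. *Alas1* was also the steadiest member, as the larger of its differences within a genotype was 0.23 on the log2 scale and that of every other member was at least 0.59. The genes whose profile over the 4 libraries was nearest to that of *Alas1*, by distance between centred log2 CPM among 10423 genes, were *Rmnd5a* (0.012), *Mcur1* (0.025) and *Ctsg*, the cathepsin G gene of neutrophil granules (0.027). *Ctsg* had 561 and 650 CPM in mutant cells and 568 and 509 CPM in controls.

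Each cytosolic enzyme was estimated higher in mutant cells, with wide errors. *Alad* (ENSMUSG00000028393, chr4:62509169-62519918, minus strand), whose product makes porphobilinogen, had 78 and 58 counts in mutant cells and 19 and 45 in controls, which correspond to 14.4, 9.45, 5.55 and 8.47 CPM. Both mutant libraries were above both control libraries, although mutant replicate 2 and control replicate 2 had overlapping counting intervals (7.18 to 12.2 and 6.18 to 11.3 CPM, exact Poisson, 95%). The log2FC of *Alad* was 0.75 (SE 0.48, 95% interval -0.35 to 1.85, adjusted p = 0.945), and it ranged from 0.42 without mutant replicate 1 to 1.10 without control replicate 2. *Alad* was the only member whose difference between genotype means (0.73 on the log2 scale) exceeded its larger difference within a genotype (0.59).

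*Uros* (ENSMUSG00000030979, chr7:133686243-133710072, minus strand), whose product closes the porphyrin ring, was the least abundant member on average. It had 11 and 42 counts in mutant cells and 8 and 9 in controls. A single library, mutant replicate 2, was high at 6.85 CPM, and the other 3 lay between 1.69 and 2.34 CPM. Its log2FC of 1.16 (SE 0.79, 95% interval -0.67 to 2.98) became 0.03 without that library. *Urod* (ENSMUSG00000028684, chr4:116989965-116994413, minus strand), which encodes the decarboxylase at the end of the cytosolic steps, had 90 and 75 counts in mutant cells and 27 and 79 in controls. Here control replicate 1 was the low library at 7.88 CPM, the other 3 spanned 12.2 to 16.6 CPM, and the groups overlapped. The log2FC of *Urod* was 0.33 (SE 0.46, 95% interval -0.73 to 1.39), and -0.05 without control replicate 1. Summed over *Alad*, *Uros* and *Urod*, the level was 33.1 and 28.5 CPM in mutant cells and 15.8 and 25.03 CPM in controls.

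The later mitochondrial enzymes had no common direction. *Cpox* (ENSMUSG00000022742, chr16:58670292-58717636, plus strand), which encodes coproporphyrinogen oxidase, had 181 and 151 counts in mutant cells and 85 and 65 in controls, or 33.5, 24.6, 24.8 and 12.2 CPM. The lower mutant library and the higher control library were nearly level, and control replicate 2 was the low one. Its log2FC was 0.66 (SE 0.43, 95% interval -0.33 to 1.65, adjusted p = 0.945), and it ranged from 0.22 without control replicate 2 to 1.24 without control replicate 1. *Fech* (ENSMUSG00000024588, chr18:64452914-64490251, minus strand), which encodes ferrochelatase, the enzyme that inserts iron, had 29 and 39 counts in mutant cells and 14 and 45 in controls. Both mutant values, 5.36 and 6.36 CPM, lay between the control values of 4.09 and 8.47 CPM. The log2FC of *Fech* was -0.12 (SE 0.56, 95% interval -1.41 to 1.17).

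*Ppox* (ENSMUSG00000062729, chr1:171275990-171281186, minus strand), which encodes protoporphyrinogen oxidase, had the largest difference within a genotype among the members, 1.63 on the log2 scale between the control libraries. It had 425 and 586 counts in mutant cells and 275 and 1321 in controls, or 78.5, 95.5, 80.3 and 249 CPM. Control replicate 1 lay between the mutant libraries, and control replicate 2 was 3.10 times as high as control replicate 1. The log2FC was -0.92 (SE 0.51, 95% interval -2.10 to 0.26, adjusted p = 0.945). It became 0.12 without control replicate 2 and -1.52 without control replicate 1, so the estimate rests on which control library is read. Each of these fits leaves 1 control library, so their p-values are not given here.

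In GENCODE M21 on GRCm38 the gene span of *Ppox* meets that of *B4galt3*, a galactosyltransferase gene on the plus strand (chr1:171270328-171276896), tail to tail over 907 bases, of which 791 are exonic in both genes. Of 8 annotated *Ppox* transcripts, 1 reaches *B4galt3*, and it is annotated as a retained intron. The longer coding transcript ends 95 bases short of *B4galt3*. *B4galt3* had 375 and 530 counts in mutant cells and 258 and 1213 in controls, so the ratio of *B4galt3* to *Ppox* counts stayed between 0.882 and 0.938 in all 4 libraries. Among 10423 genes *B4galt3* had the second nearest profile to *Ppox* (distance 0.064) after *Uba1* (0.060), a pattern that was looked at after the values had been seen. Whether the counting used strand is not stated in the sources used here, and whether reads of *B4galt3* entered the *Ppox* counts was not tested. The *Ppox* values are therefore uncertain.

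**Figure D2:**
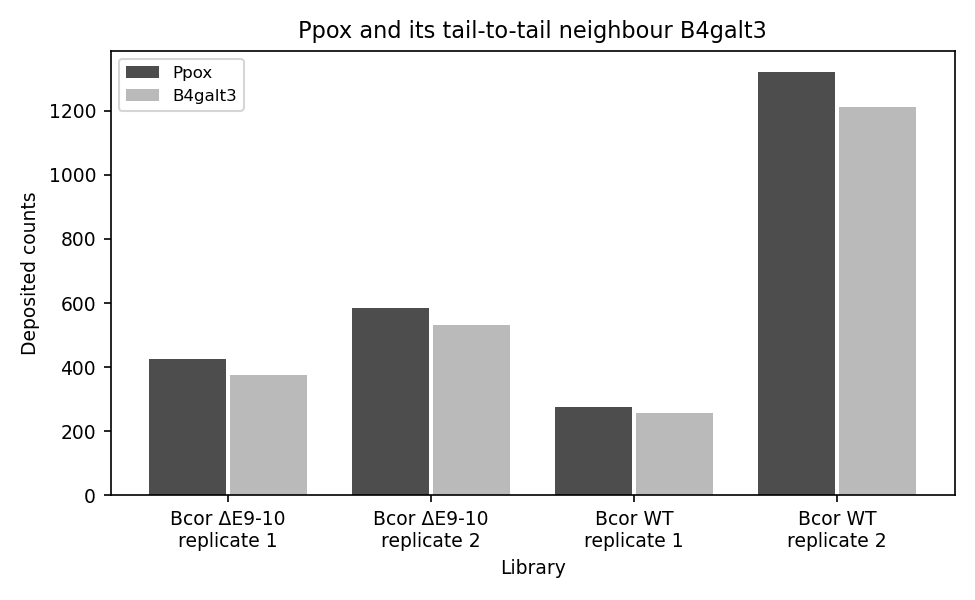
Deposited counts of *Ppox* (dark bars) and of *B4galt3* (light bars), whose 3′ end overlaps it, in each library. The bars of both genes have the same order over the libraries, with 1321 and 1213 counts in control replicate 2 against 275 and 258 in control replicate 1.

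Other overlaps were smaller or lay with genes outside the table. Exons of *Alas1* share 465 bases with the antisense gene *4930500F10Rik*, and those of *Cpox* share 204 bases at the 3′ end with *Gpr15* on the other strand. The span of *Uros* meets that of *Bccip* with 0 shared exonic bases. The last 300 bases of the coding transcripts of *Alas1*, *Alad*, *Uros*, *Urod* and *Ppox* matched no other gene over 60 bases at 90% identity. For *Cpox* a stretch of at most 86 bases was found in 54 other genes, and for *Fech* one of at most 116 bases was found in 4, so reads from these stretches could be shared.

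**Figure D3:**
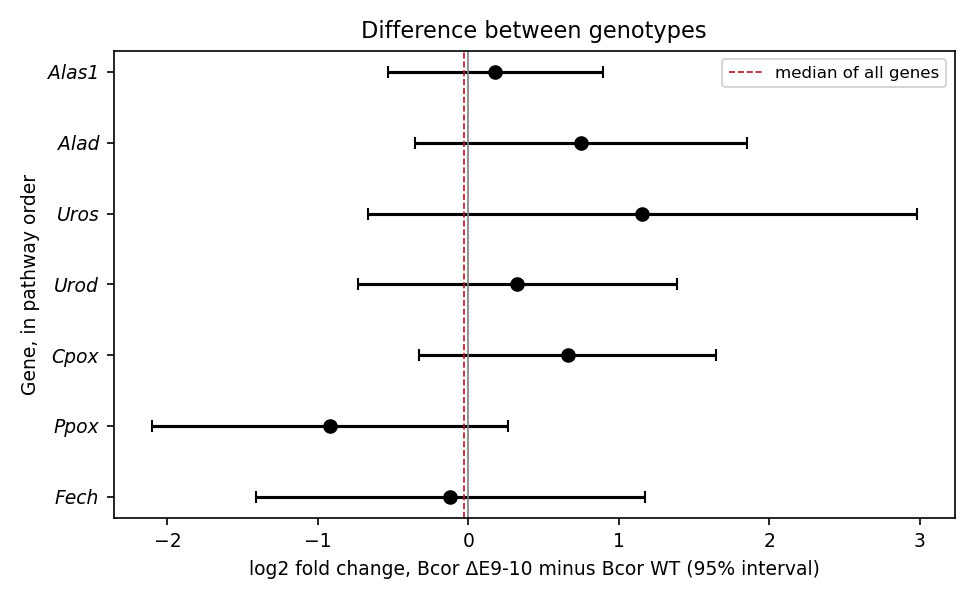
Log2FC of each enzyme, *Bcor*ΔE9-10 minus *Bcor*WT, with its 95% interval from edgeR's quasi-likelihood fit, in pathway order, and a dashed line at the median of all genes (-0.03). Every interval spans 0, from *Uros* at 1.16 to *Ppox* at -0.92.

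Across the pathway the order of the levels was nearly fixed. In mutant cells it ran *Alas1* (111 ± 12.8 CPM, SD, n = 2), *Ppox* (87.0 ± 12.0), *Cpox* (29.0 ± 6.25), *Urod* (14.4 ± 3.12), *Alad* (11.9 ± 3.51), *Fech* (5.86 ± 0.705) and *Uros* (4.44 ± 3.40). Quant-seq gives reads near the 3′ end of each transcript, so these levels were not divided by length. The replicates of *Urod* and *Alad* overlapped, as did those of *Fech* and *Uros*, and the other neighbours in this order did not. In controls the order was *Ppox* (164 ± 119 CPM), *Alas1* (98.2 ± 8.99), *Cpox* (18.5 ± 8.90), *Urod* (11.4 ± 4.94), *Alad* (7.01 ± 2.06), *Fech* (6.28 ± 3.10) and *Uros* (2.01 ± 0.454). There only *Alas1* stood clear of *Cpox* and *Fech* of *Uros*, while the ranges of the other neighbours overlapped.

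Summed over the 7 enzymes, the level was 253 and 275 CPM in mutant cells and 230 and 386 CPM in controls, so the control libraries lay on both sides of the mutant libraries. As a share of all counts this was 0.0270% (95% Wilson interval 0.0256 to 0.0285%) and 0.0270% (0.0258 to 0.0283%) in mutant cells, and 0.0205% (0.0192 to 0.0220%) and 0.0411% (0.0394 to 0.0429%) in controls. *Ppox* made up 64.4% of the summed enzyme counts in control replicate 2 and 31.1 to 34.99% in the other 3 libraries, whereas *Alas1* made up 23.8% there and 40.5 to 45.5% elsewhere. Without *Ppox*, a choice made after the values were seen, the remaining 6 enzymes summed to 174 and 180 CPM in mutant cells and 149 and 138 CPM in controls. The groups of that sum did not overlap, and the means differed by 33.6 CPM.

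The control libraries differed from each other more than the genotype means did for 5 of the 7 members, *Alad* and *Uros* being the exceptions. Relative to control replicate 1, replicate 2 had 3.10 times the *Ppox*, 2.07 times the *Fech*, 1.89 times the *Urod* and 1.53 times the *Alad* level. *Alas1* (0.878 times), *Uros* (0.725 times) and *Cpox* (0.493 times) were lower there. The members thus did not shift together between these libraries, and with *Ppox*, *Fech* and *Urod* high and *Cpox* and *Uros* low the profile of control replicate 2 was unlike that of control replicate 1.

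**Figure D4:**
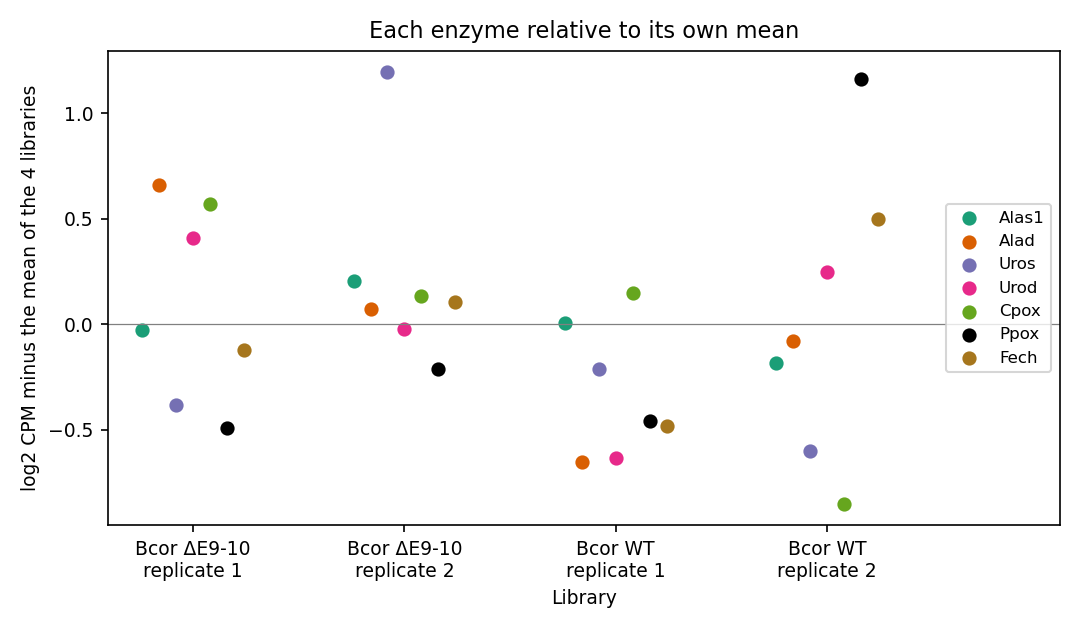
Log2 CPM (prior count 2) of each of the 7 enzymes minus its own mean over the 4 libraries, by library. In control replicate 2 the values run from -0.85 for *Cpox* to 1.16 for *Ppox*, while *Alas1* stays between -0.18 and 0.21 in all libraries.

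The proximal promoters differ in the letters they hold. RefSeq windows (GRCm38.p6) were read for 7 of the 8 listed enzymes, and *Fech* was left out of this search. The 250 bases before a start were searched on both strands for CACGTG, an E-box, and for the GATA motif. The GATA motif was spelled AGATAA or AGATAG and, starting with the other letter, TGATAA or TGATAG, the letters bound by erythroid and mast cell GATA factors. Of all 32851 promoter windows, 6.02% hold this E-box and 26.5% hold a GATA motif. Of the 2 *Alad* windows 1 is free of annotated exons, as are the windows of *Urod*, *Cpox* and *Ppox*, and the 3 of these that hold either motif are shown because they belong to the member without overlap (*Alad*), to another cytosolic enzyme (*Urod*) and to the mitochondrial enzyme estimated highest in mutant cells (*Cpox*), with the motifs in capitals:
Alad, chr4:62520064-62520313, minus strand: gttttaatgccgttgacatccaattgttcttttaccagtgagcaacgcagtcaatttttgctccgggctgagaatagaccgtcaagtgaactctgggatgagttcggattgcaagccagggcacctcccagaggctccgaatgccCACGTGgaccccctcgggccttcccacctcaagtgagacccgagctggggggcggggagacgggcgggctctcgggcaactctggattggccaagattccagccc
Urod, chr4:116994414-116994663, minus strand: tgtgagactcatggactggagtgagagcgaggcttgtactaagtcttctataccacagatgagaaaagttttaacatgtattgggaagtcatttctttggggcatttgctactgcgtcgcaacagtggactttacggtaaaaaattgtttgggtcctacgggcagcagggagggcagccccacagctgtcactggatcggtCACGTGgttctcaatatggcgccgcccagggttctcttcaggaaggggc
Cpox, chr16:58669958-58670207, plus strand: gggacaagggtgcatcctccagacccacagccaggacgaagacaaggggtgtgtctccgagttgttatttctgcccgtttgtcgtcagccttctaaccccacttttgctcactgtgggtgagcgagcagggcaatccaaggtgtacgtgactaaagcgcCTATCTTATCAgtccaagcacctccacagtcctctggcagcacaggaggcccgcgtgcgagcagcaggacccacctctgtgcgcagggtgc
The E-box begins 105 bases before the start in *Alad* and 49 bases before it in *Urod*. In *Cpox* a pair of GATA motifs on the opposite strand, at bases 160 to 165 and 165 to 170 of the window, share 1 base. The *Ppox* window holds neither motif. Among the windows that overlap an annotated exon and are not shown, those of *Uros* hold an E-box in 1 and 2 GATA motifs in the other, the other *Alad* window holds an E-box, that of *Alas2* holds 1 GATA motif, and those of *Alas1* hold neither. The same search also covered CCNCACCC (14.9% of all windows) and the GC box GGGCGG (32.7%). The exon-free windows of *Alad*, *Urod*, *Cpox* and *Ppox* hold 0 CCNCACCC, whereas the windows of *Alas1* and *Alas2* hold it. Of the exon-free windows, that of *Alad* holds 2 GC boxes, that of *Urod* 1, and those of *Cpox* and *Ppox* 0. These are matches of letters, and no binding was measured here.

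Genes that supply the pathway were read from lists which, like the marker lists further on, were drawn up with results of these data known. Of 12 mitochondrial carriers and enzyme partners, 10 were estimated higher and 2 lower in mutant cells, with a median log2FC of 0.34. None passed an unadjusted p of 0.05. The groups did not overlap for 7 that were higher and 1 that was lower, where 16.8% and 17.1% of all genes were higher and lower without overlap. *Slc25a37*, which encodes mitoferrin 1, the iron importer of erythroid mitochondria, had 568 and 557 counts in mutant cells and 255 and 283 in controls. Its log2FC was 0.62 (SE 0.33, adjusted p = 0.945), and the groups did not overlap. That log2FC ranged from 0.39 without control replicate 2 to 0.87 without control replicate 1. *Fam210b*, a mitochondrial gene induced in erythroid maturation, had the largest difference of the list with all libraries. It had 28 and 22 counts against 8 and 15, a log2FC of 0.75 (SE 0.63). Without mutant replicate 1 its log2FC was 0.46, below the 0.51 of *Slc25a37*, and without mutant replicate 2 it was 0.99.

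The 13 genes of iron-sulfur cluster assembly, which supply the cluster that ferrochelatase carries, had a median of 0.01, with 7 estimated higher and 6 lower and none at an unadjusted p under 0.05. The largest difference among them with all libraries was that of *Lyrm4*, at 39 and 54 counts in mutant cells and 21 and 20 in controls (log2FC 0.71, SE 0.52). The log2FC of *Lyrm4* ranged from 0.38 without control replicate 2 to 1.08 without control replicate 1. Of the 9 genes of heme export, degradation and sensing in the table, of 11 listed, 5 were higher and 4 lower, with a median of 0.02. *Bach1*, which encodes a repressor that is released by heme, was alone in having an unadjusted p under 0.05, 1 of 9 where 4.42% of all genes had one. It had 193 and 186 counts in mutant cells and 62 and 69 in controls, a log2FC of 1.09 (SE 0.35, unadjusted p = 0.0150 by edgeR, adjusted p = 0.945), and leaving out any 1 library gave 0.86 to 1.34. Its unadjusted p by edgeR was 0.141 without mutant replicate 1 and 0.0618 without mutant replicate 2. *Hmox1*, which encodes the inducible heme oxygenase and is a known target of Bach1, had 3 and 18 counts in mutant cells and 15 and 25 in controls. Both control libraries were higher in CPM, and the log2FC was -1.35 with an SE of 0.83, moving to -0.63 without mutant replicate 1 and to -2.97 without mutant replicate 2. *Slc48a1*, a heme transporter gene, was high in the same library as *Ppox*, with 467, 421 and 280 counts in the others and 961 in control replicate 2.

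Markers of the erythroid lineage, whose cells use *Alas2* and make the most heme, were estimated higher in mutant cells throughout. Of 19 listed erythroid markers 11 were in the table. edgeR's expression filter removed 0 genes, so the deposited table appears to have been filtered by expression already. *Rhd* and *Rhag*, near 0 in controls, may be in it only through their mutant counts, which would fix their direction. With them included, all 11 were estimated higher in mutant cells, 10 without overlap (16.8% of all genes). An unadjusted p under 0.05 was seen for 7 (4.42% of all genes in either direction). Without mutant replicate 1 that count was 4 (2.01% of all genes). None passed adjustment by edgeR with all libraries. By DESeq2 1, *Car2*, did, where 43 genes (0.356% of all) were called, and by edgeR without control replicate 1 4 did, where 596 genes (4.94% of those tested) were called. The summed level of the 11 markers was 207 and 164 CPM in mutant cells and 56.7 and 73.4 CPM in controls, and the median log2FC was 1.56. *Rhd* and *Rhag* had 1 count over both control libraries. The lower limits of their counting intervals (3.47 and 2.36 on the log2 scale) lie above that median, so setting them there cannot change it. *Car2*, a carbonic anhydrase gene, had 257 and 235 counts in mutant cells and 40 and 23 in controls (log2FC 2.45, SE 0.49, adjusted p = 0.664). Its adjusted p was 0.00467 by DESeq2 and 0.00441 by edgeR without control replicate 1, and it ranged from 0.00441 to 0.733 over the alternatives. *Car1*, which encodes a related carbonic anhydrase, had 141 and 124 counts against 32 and 23 (log2FC 1.78). The alpha-globin gene *Hba-a2* (105 and 134 against 19 and 62 counts, log2FC 1.24), *Ermap*, a red cell membrane protein gene (39 and 32 against 8 and 10, log2FC 1.56), and *Hemgn*, a haematopoietic nuclear protein gene (47 and 31 against 8 and 3, log2FC 2.31), were the others at an unadjusted p under 0.05 beside *Rhd* and *Rhag*. The globin genes *Hbb-bt* (log2FC 1.11), *Hbb-bs* (0.92) and *Hba-a1* (1.10) and the water channel gene *Aqp1* (0.79) made up the rest of the 11. *Rhd*, a blood group antigen gene, had 37 and 47 counts in mutant cells and 0 and 1 in controls, a ratio of 63.6 with an exact 95% counting interval from 11.1 to 2541. *Rhag* had 25 and 15 counts against 1 and 0, a ratio of 30.3 (5.13 to 1225). With at least 10 counts required in every library, 7 of the markers were tested and all 7 were estimated higher. Of those, 4 had an unadjusted p under 0.05 by edgeR (4.7% of all genes). The part of these erythroid transcripts in the enzyme levels was not tested.

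Among the erythroid transcription factors and receptor, 7 of 8 listed genes were in the table, 4 estimated higher and 3 lower, with a median of 0.31. *Klf1*, which encodes an erythroid activator of heme and globin genes, had 24 and 17 counts in mutant cells and 1 and 4 in controls (log2FC 2.64, SE 0.86, unadjusted p = 0.0156 by edgeR). With so few control counts, *Klf1* too may be in the table only through its mutant counts. *Tal1*, an erythroid and stem cell factor gene, had 160 and 133 counts against 47 and 56 (log2FC 1.08, unadjusted p = 0.0220 by edgeR). Both had an adjusted p of 0.945. Without mutant replicate 1 the unadjusted p by edgeR was 0.110 for *Klf1* and 0.222 for *Tal1*, and without mutant replicate 2 that of *Tal1* was 0.0545. *Gata1*, which encodes the factor that drives *Alas2*, had 22 and 10 counts in mutant cells and 5 and 22 in controls, a log2FC of -0.02.

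Markers of other lineages were read in the same way. The 6 basophil, mast cell and eosinophil markers were all lower in mutant cells without overlap (17.1% of all genes), 4 of them at an unadjusted p under 0.05 (4.42% of all genes in either direction), and summed to 265 and 224 CPM against 552 and 677 CPM. The 4 became 3 without mutant replicate 1 (2.01% of all genes) and 2 without mutant replicate 2 (3.1%). Those 4 were the protease genes *Prss34* (203 and 305 counts against 471 and 1257, log2FC -2.10), *Mcpt8* (149 and 222 against 450 and 617, -1.96) and *Cpa3* (103 and 107 against 118 and 224, -1.07), and the eosinophil peroxidase gene *Epx* (12 and 7 against 25 and 54, -2.38). *Ms4a2*, an IgE receptor gene, had a log2FC of -0.67 and *Prg2*, the eosinophil major basic protein gene, one of -0.79. All 4 megakaryocyte markers in the table, of 5 listed, were estimated lower, and *Pf4* alone had an unadjusted p under 0.05, with 80 and 76 counts against 80 and 160. Granulocyte-monocyte markers, 8 of 8 in the table, were estimated higher for 2 genes and lower for 6, of which 4 were lower without overlap and 0 were higher without overlap. Of 6 lymphoid and 5 stem cell markers, 2 each were in the table, and their groups overlapped. The part of these lineages in the enzyme levels was not tested. No basophil, mast cell and eosinophil marker passed an adjusted p of 0.05 by edgeR with all libraries, whereas 2 did by DESeq2 (0.356% of all genes), and by edgeR 4 did without control replicate 1 (4.94% of all genes) and 1 without control replicate 2 (0.249%).

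**Figure D5:**
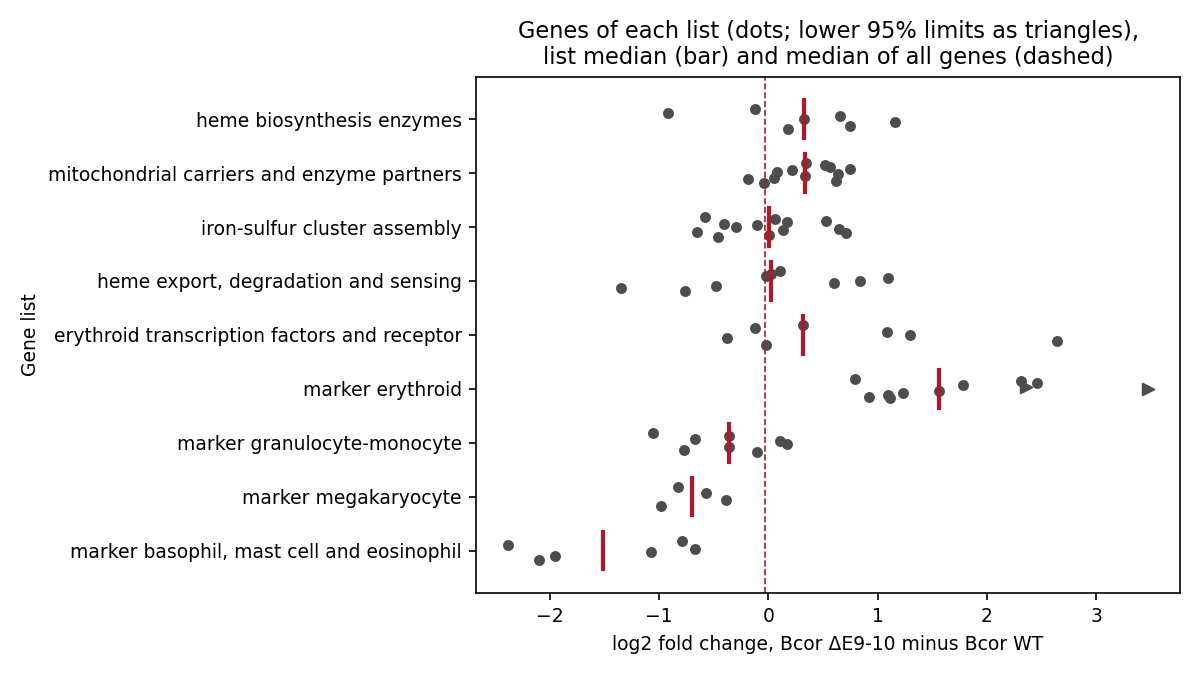
Log2FC of every gene in each list, *Bcor*ΔE9-10 minus *Bcor*WT, with the list median as a bar, the lower 95% counting limits of *Rhd* and *Rhag* as triangles and the median of all genes (-0.03) as a dashed line. The heme enzymes spread from -0.92 to 1.16 around 0.33, while erythroid markers centre on 1.56 and basophil, mast cell and eosinophil markers on -1.51.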

How the data were processed

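Donor-derived KL cells were profiled by Quant-seq with 2 libraries of each genotype. The authors removed low-quality reads, trimmed with cutadapt, mapped to GRCm38 (mm10) with HISAT2 and summarised reads per gene with featureCounts of Subread; the deposited values are raw counts. Because 1 gene (*Gm4430*) was not whole in mutant replicate 2 and in control replicate 1, these deposited columns were taken for expected counts and were rounded before testing. Use of strand in the counting is not given in the sources used here.

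Counts were tested with edgeR 4.0.16 (R 4.3.3) by filterByExpr, which removed 0 genes, TMM scaling and a quasi-likelihood F test, with a prior count of 0.125 and Benjamini-Hochberg adjustment over 12067 genes. A standard error is the log2 fold change divided by the square root of F. TMM factors were 0.895 to 1.07, and 3 counts equalled 0.489 to 0.876 CPM. Wilson, Poisson and ratio intervals and floors cover counting error only, and the 95% intervals of a log2 fold change come from the fit. Alternatives were DESeq2's size factors, library sizes without *Gm42418*, other filters, a block for the replicate number, limma-voom (limma 3.58.1), DESeq2 1.42.0, a prior count of 2 and each library left out. The fits were tested on simulated counts.

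The enzymes and lists were chosen with earlier results of these data known. Named genes were all listed enzymes, *Bcor*, *Gm42418*, in each list of pathway genes and erythroid factors the genes with an unadjusted p under 0.05 and the gene with the largest absolute log2 fold change, the markers of a list whose summed level is given, and the 3 profiles nearest *Alas1*. *B4galt3*, *Uba1*, *Slc25a37*, *Slc48a1*, *Gata1*, *Pf4*, *Kit*, *Ly6a* and *Mpo* were named outside this rule, after their values were seen, and other genes only as annotated neighbours. A further gene that was planned is not reported here. Positions came from GENCODE M21, and transcript ends were aligned with blastn 2.17.0.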

Additional observations from a re-analysis of the deposited data

How the results depend on the processing

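No heme enzyme had an adjusted p under 0.05, and none an unadjusted p under 0.05, under DESeq2's size factors, library sizes without *Gm42418*, no filter (0 genes differed), a minimum of 10 counts per library, the replicate block, limma-voom, DESeq2 or a prior count of 2, and 5 of 7 were higher in each (4 of 6 with at least 10 counts). Genes called in the whole table moved from 2 to 5 with at least 10 counts, 14 with the replicate block, 4 with limma-voom and 43 with DESeq2, and from 6 to 596 with 1 library left out. Leaving out 1 library assumes that the lone library varies like the others, and the statement above on the enzymes' p-values does not cover those fits. Without control replicate 1 the log2 fold change of *Cpox* was 1.24 and that of *Ppox* was -1.52. The median of the enzymes ran from 0.062 (without mutant replicate 2) to 0.52. Their summed difference ran from -127.7 CPM (without control replicate 1) to 33.7 CPM (without control replicate 2), and was -43.9 CPM with all. Without *Ppox* the summed difference ran from 27.1 to 40.4 CPM, and the number of enzymes higher ran from 4 to 7. Erythroid markers with an unadjusted p under 0.05 numbered 7 with all libraries (4.42% of all genes in either direction). They ran from 4 without mutant replicate 1 (2.01% of all genes) to 8 without control replicate 2 (5.71%). With at least 10 counts, 4 of the 7 tested had such a p (4.7% of all genes). By edgeR with all libraries, 3 of 41 genes of the pathway and erythroid factor lists had an unadjusted p under 0.05 (4.42% of all genes). By limma-voom 4 had one (4.27% of all genes). Of 6 basophil, mast cell and eosinophil markers, 4 were lower at such a p by edgeR. The number was 5 by limma-voom and by DESeq2 (4.19% of all genes with DESeq2). The number of enzymes higher, the sum without *Ppox* and the counts of markers were added to these alternatives after seeing the data. Signs turned in some omissions, where the log2 fold change ran from -0.53 (without control replicate 1) to 0.52 (without control replicate 2) for *Fech*, with 0.0025 without mutant replicate 1, from -0.049 (without control replicate 1) to 0.87 (without control replicate 2) for *Urod*, from -1.52 to 0.12 for *Ppox* and from -1.56 to 0.047 for *B4galt3*, in both without control replicates 1 and 2 in turn. The cause was not tested. Deviations of same-numbered libraries correlated at -0.094. With 2 libraries of each genotype this is a single correlation, so it cannot exclude pairing or a shared batch. The replicate block gave a median of 0.37 for the enzymes. The planned share of *Alas2* could not be computed here. The 95% intervals of the fit allow changes of over 1 log2 unit for every enzyme but *Alas1*.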
